A study of Mus musculus with 24 samples.

Results

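The genes of the basement membrane and of its integrin receptors were followed through ureter obstruction and recovery in mouse kidney. They were taken by symbol from the protein-coding rows of the deposited table: every laminin chain, every collagen IV chain, every integrin subunit, and Agrn, Col15a1, Col18a1, Hspg2, Nid1 and Nid2. This gave 43 genes of the 14785 rows. They are 6 collagen IV chains, 11 laminin chains, 6 other components, 14 integrin subunits that bind matrix or latent TGF-beta, and 6 integrin subunits of leukocytes. Symbols of these families with no row, such as Itga2 and Itgb3, are not analysed here. Rows of the table average 1 FPKM or more across all libraries.

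A basement membrane is a thin sheet of matrix under epithelium and endothelium and around muscle and fat cells. Laminin trimers, each of an alpha, a beta and a gamma chain, and collagen IV trimers form its networks, and nidogens, perlecan (Hspg2) and agrin (Agrn) join or fill them. Cells hold on to it through integrins, heterodimers of an alpha and a beta subunit that link matrix outside to actin or keratin inside. In the kidney the glomerular filter uses the collagen IV chains encoded by Col4a3, Col4a4 and Col4a5 and a laminin of Lama5, Lamb2 and Lamc1, whereas most other basement membranes use the chains of Col4a1 and Col4a2. Integrins with a beta subunit encoded by Itgb6 or Itgb8 release TGF-beta from its latent complex.

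The animals were male C57/BL6 mice, 8 to 9 weeks old at the start. Unilateral ureter obstruction (UUO) ties the ureter of a kidney, and reversal surgery reimplants it. The 6 groups of 4 animals were sham surgery, obstruction for 2 days (UUO2) or 7 days (UUO7), and 7 days of obstruction followed by reversal and sampling after 1 week (R1W), after 2 weeks (R2W) and after 4 weeks (R4W). Kidney is the labelled tissue, the series title names the cortex, and RNA was polyA-selected.

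Some libraries stood apart before any comparison. Low values fell on whole-read steps in 20 of the 24 libraries, which implied 25100000 to 35320000 fragments each, but on none (0 of 4) in UUO2, so that depth there is unknown. The mitochondrial RNA mt-Rnr1 ran from 2343 to 2832 FPKM in UUO2 libraries against 342 to 709 in the rest, so the library difference and 2 days of obstruction cannot be told apart. Sham replicate 2 had 39.5 FPKM of summed urothelium markers, where the lowest sham library had 1.74. Summed adipose markers were 40.3 to 48.5 FPKM in 3 sham libraries and 199.5 in sham replicate 2, and in R4W they were 61.6, 69.8, 210.2 (replicate 3) and 1029 (replicate 1). Without R4W replicate 1 or replicate 3, R4W against sham gave the same counts as with them, 37 genes higher and 3 lower. Over all 14785 genes, 7700 and 7675 were then higher and 1553 and 1516 lower. The title of R4W replicate 2 says 4 weeks and its treatment label says 2 weeks, and it was grouped by its title. The median gene of the whole table was 0.42 higher in UUO7 than in sham and 0.30 higher in R4W than in sham on the log2(FPKM + 1) scale. Each call was therefore also made on values rescaled so that the median ratio between libraries is even. Calls that differ are named for the basement membrane and integrin genes. For marker genes and the other lists, counts on rescaled values are given where they differ, without naming the genes.

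The sequences upstream of 4 genes whose values the results turn on are printed first, from the RefSeq promoter table of build GRCm38.p6. The table held 30 of the 43 genes in 35 windows, each of 250 bases before a start, and bases that the GENCODE vM21 annotation places in an exon were removed before printing. Capitals mark a motif match on either strand. The GC box was searched as GGGCGG. The CCAAT box was searched under exactly those letters. For the box of Tata-binding protein the letters were TATAAA. For the AP-1 factors the search used TGANTCA. The core site of the myeloid factor PU.1 was searched as GAGGAA. Col4a4 and Col4a3 are transcribed away from each other, and the 71 bases between their starts are the whole of the first sequence, given on the strand of Col4a4. Col15a1 had the largest rise of the 43 genes on the log2(FPKM + 1) scale, though not in the ratio of means, where Itgam was higher. Itgam is the alpha subunit of a myeloid integrin, and Itgb6 went from above sham to below it. The table has 2 starts for Itgb6, and the window printed is that before the start farther upstream.
Col4a4 to Col4a3 (chr1:82586850-82586920, minus strand): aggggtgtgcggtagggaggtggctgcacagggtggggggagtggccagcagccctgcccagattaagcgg
Col15a1 (chr4:47207762-47208011, plus strand): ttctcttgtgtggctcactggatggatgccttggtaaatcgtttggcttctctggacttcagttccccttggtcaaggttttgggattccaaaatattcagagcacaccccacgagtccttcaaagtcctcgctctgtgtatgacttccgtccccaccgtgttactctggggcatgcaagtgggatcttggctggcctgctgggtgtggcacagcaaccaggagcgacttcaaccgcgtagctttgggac
Itgam (chr7:128062390-128062639, plus strand): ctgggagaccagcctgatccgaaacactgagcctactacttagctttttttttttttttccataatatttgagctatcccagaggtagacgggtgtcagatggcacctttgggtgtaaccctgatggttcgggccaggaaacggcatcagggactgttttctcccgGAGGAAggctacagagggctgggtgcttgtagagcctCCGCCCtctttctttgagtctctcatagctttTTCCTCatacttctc
Itgb6 (chr2:60722644-60722853, minus strand): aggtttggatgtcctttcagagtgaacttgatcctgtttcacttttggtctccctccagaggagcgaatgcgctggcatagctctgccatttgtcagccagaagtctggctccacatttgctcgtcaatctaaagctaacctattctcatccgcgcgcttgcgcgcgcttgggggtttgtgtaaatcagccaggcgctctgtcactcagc

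The Itgam window held a GC box and a pair of PU.1 cores, and the other stretches printed held none of the letters searched. The motif counts that follow are over whole windows of 250 bases, exon bases included. Over all 32851 windows of the table, 32.7% held the GC box, 33.8% the CCAAT box, 12.4% the TATA box, 6.7% the AP-1 site and 23.3% the PU.1 core. Of the 35 windows of the genes described here, 17 held the GC box, 9 the CCAAT box, 0 the TATA box, 1 the AP-1 site and 14 the PU.1 core. The motifs share few letters and can overlap other sites. All 6 collagen IV genes lie in head-to-head pairs. Col4a1 (chromosome 8, 11198423 to 11312826, minus strand) and Col4a2 (11312805 to 11449287, plus strand) overlap by 22 bases, and Col4a6 and Col4a5 on chromosome X start 1308 bases apart. Coordinates are those of the deposited table, for which the submitters' processing notes name mm10, and 40 of the 43 are the same in GENCODE vM21.

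Most of the 43 genes were higher after 7 days of obstruction, and most of those were still above sham 4 weeks after reversal. In UUO7 against sham, 36 genes rose, 4 fell and 3 were not called, with a median log2 fold change of 1.42. Of all 14785 genes, 60.1% were called higher and 17.8% lower in that comparison, with a median of 0.42. On rescaled values 33 rose and 6 fell, against 36.5% of all genes in each direction, and 37 of the calls were shared in direction between both scalings. The 4 libraries of UUO7 and of sham did not overlap for 40 of the 43 genes (93%), against 73.7% of all genes, and 77.9% of all genes were called in either direction. The 4 that fell were Col4a3, Col4a4, Lama1 and Itgb8. Of the 43 genes, 8 had a sham mean under the 1 FPKM that a row needs over all libraries, so they have a row through other groups, and 7 of these 8 are among the rises: the 6 leukocyte integrins and Itga10.

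**Figure D1:**
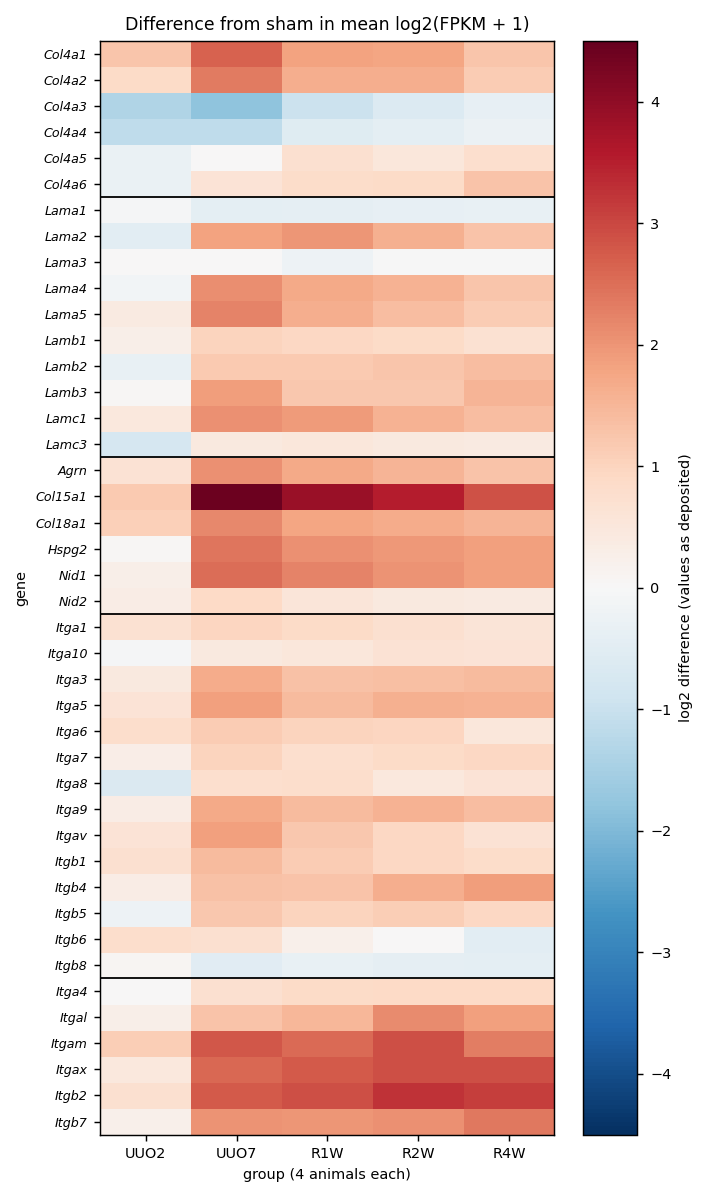
Difference of each group from sham in mean log2(FPKM + 1), values as deposited, for 42 of the genes in rows (4 animals a group, lines separate the classes). Red is higher than sham and blue lower; the UUO7 column runs from -1.82 (Col4a3) to 4.42 (Col15a1), and most rows stay red to R4W.

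The first class is collagen IV, the network-forming collagen of every basement membrane, and its chains moved in opposite directions. Col4a1 and Col4a2, which encode the widespread pair of chains, rose with obstruction and came down in part after reversal. Col4a3 and Col4a4, which encode chains of the mature glomerular filter, fell with obstruction and came back up. In UUO7 against sham 2 of the 6 chains rose, 2 fell and 2 were not called, beside 60.1% of all genes called higher and 17.8% lower. On rescaled values 2 rose and 3 fell, Col4a5 being added, beside 36.5% each way.

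Col4a1 was at 29.2, 34.3, 31.1 and 31.8 FPKM in sham, 84.5, 62.1, 74.8 and 87.8 in UUO2, 188, 212, 195 and 217 in UUO7, 113, 105, 112 and 122 in R1W, 111, 86.3, 142 and 108 in R2W, with R4W at 72.2, 91.2, 83.7 and 64.3. Every UUO7 library lay above every other library of the series. Its log2 fold change was 1.25 ± 0.13 (SE, n = 4 a group) in UUO2 and 2.65 ± 0.13 in UUO7 against sham, with a limma adjusted p of 2.64e-12 at 7 days. Col4a2 was at 19.6, 22.7, 20.3 and 21.1 FPKM in sham, 41.6, 32.6, 36.9 and 45.96 in UUO2, 109, 113, 97.7 and 124 in UUO7, 68.8, 62.1, 61.8 and 72.99 in R1W, 74.8, 53.9, 82.5 and 62.3 in R2W, with R4W at 45.3, 52.9, 50.2 and 43.3. It followed Col4a1 at a lower level, and its log2 fold change at 7 days was 2.35 ± 0.12. Their first bases overlap, and as the counting is not stated to use strand, fragments in those 22 bases cannot be told apart.

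Both genes fell after reversal without returning to sham. From UUO7 to R1W the log2 changes were -0.84 for Col4a1 (limma adjusted p 0.000539) and -0.73 for Col4a2 (0.000859), and the groups did not overlap. From R1W to R4W both fell again, by 0.54 and 0.46 on the log2 scale. In a fit of those 2 groups alone the limma adjusted p values of these last falls were 0.0557 and 0.0515. In R4W Col4a1 was at 77.8 ± 11.9 FPKM (SD, n = 4) against 31.6 ± 2.10 in sham, a log2 fold change of 1.26 with a limma adjusted p of 6.12e-08.

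Col4a3 (chromosome 1, 82586921 to 82722059) was at 32.01, 30.02, 34.2 and 25.4 FPKM in sham, 10.4, 16.7, 10.5 and 8.96 in UUO2, 8.1, 9.22, 5.05 and 9.99 in UUO7, 16.9, 19.9, 9.1 and 15.4 in R1W, 21.02, 18.6, 18.4 and 20.3 in R2W, with R4W at 21.4, 21.5, 25.2 and 25.8. No obstructed library reached the lowest sham value. Its log2 fold change was -1.34 ± 0.20 in UUO2 and -1.82 ± 0.20 in UUO7, with a limma adjusted p of 5.87e-08 at 7 days. Col4a4 (chromosome 1, 82448423 to 82586849), whose start lies 71 bases away as printed above, was at 28.4, 32.7, 31.4 and 27.3 FPKM in sham, 12.1, 17.2, 11.4 and 11.7 in UUO2, 12.9, 13.2, 10.6 and 15.02 in UUO7, 21.4, 23.96, 16.9 and 19.6 in R1W, 24.3, 21.9, 19.96 and 21.2 in R2W, with R4W at 24.6, 21.5, 26.7 and 26.1. It was as low after 2 days as after 7, with a log2 fold change of -1.15 ± 0.12 at both times, and UUO2 and UUO7 overlapped. The difference of Col4a3 between UUO7 and UUO2 was -0.48 with a limma adjusted p of 0.042. It was -0.30 without UUO2 replicate 2 (0.187) and -0.29 without UUO7 replicate 3 (0.193). It also missed the threshold without UUO2 replicate 3 (0.0504) or UUO7 replicate 1 (0.0612), with a pseudocount of 10 (0.0663) and in a fit of those groups alone (0.0927).

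After reversal Col4a3 and Col4a4 rose by 0.83 and 0.62 from UUO7 to R1W, with limma adjusted p values of 0.00993 and 0.00317. In a fit of those groups alone the first was 0.0604. From UUO7 to R4W they rose by 1.46 and 0.89. Whether they were still below sham in R4W depended on the fit and on the scaling. The values as deposited gave differences from sham in R4W of -0.36 for Col4a3 (limma adjusted p 0.123) and -0.27 for Col4a4 (0.0574). Rescaled values gave -0.72 (0.00388) and -0.63 (0.000131). A limma fit of sham and R4W alone called both on the values as deposited (adjusted p 0.0139 and 0.0183). Col4a4 was also called without UUO2 (0.0339), with a pseudocount of 10 (0.0343) and without sham replicate 4 (0.0487). The rise of Col4a3 from R1W to R4W, 0.63 with a limma adjusted p of 0.0349, was 0.41 (0.174) without R1W replicate 3. It also missed the threshold without R1W replicate 4 (0.0539), without R4W replicates 1, 3 or 4 (0.0553, 0.0748 and 0.0874) and in a fit of those groups alone (0.0905).

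Podocytes make the glomerular chains, and at 7 days their markers went the other way from Col4a3. Of 6 podocyte markers, 3 were called lower and 1 higher in UUO2 than in sham, or 3 and 0 on rescaled values. In UUO7 5 were called higher than in sham and 0 lower, or 3 and 0 on rescaled values. Their summed level was 45.2 to 51.2 FPKM in sham, 21.1 to 43.9 in UUO2, 86 to 103 in UUO7 and 124 to 181 in R4W, and 0 of the 6 were at 0. Tubule markers moved the way Col4a3 did: 6 of 6 distal nephron markers fell in UUO7 and 6 of 6 rose from UUO7 to R1W, from a summed 1319 to 1688 FPKM in UUO7 to 2176 to 2819 in R1W. Their part in the change of Col4a3 was not tested. In bulk tissue fewer cells of a type and less RNA per cell cannot be told apart.

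Col4a5, on chromosome X, encodes the chain that joins those of Col4a3 and Col4a4. It was at 8.30 ± 1.75 FPKM in sham and 8.34 ± 0.845 in UUO7 (SD, n = 4), a difference of 0.02 with a limma adjusted p of 0.928. On rescaled values it fell by 0.42 (0.0196). It rose from UUO7 to R1W by 0.70 and stood at 14.8 ± 1.67 FPKM in R4W, above sham under both scalings. Col4a6, its head-to-head neighbour and a chain of smooth muscle and some epithelial basement membranes, went from 0.88 ± 1.05 FPKM in sham to 1.61 ± 0.316 in UUO7, which was not called. It reached 3.21 ± 0.347 in R4W, a log2 fold change of 1.29 from sham. Sham replicate 2, the library with urothelium markers, held 2.46 FPKM of Col4a6, and the other sham libraries held 0.3 to 0.41.

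**Figure D2:**
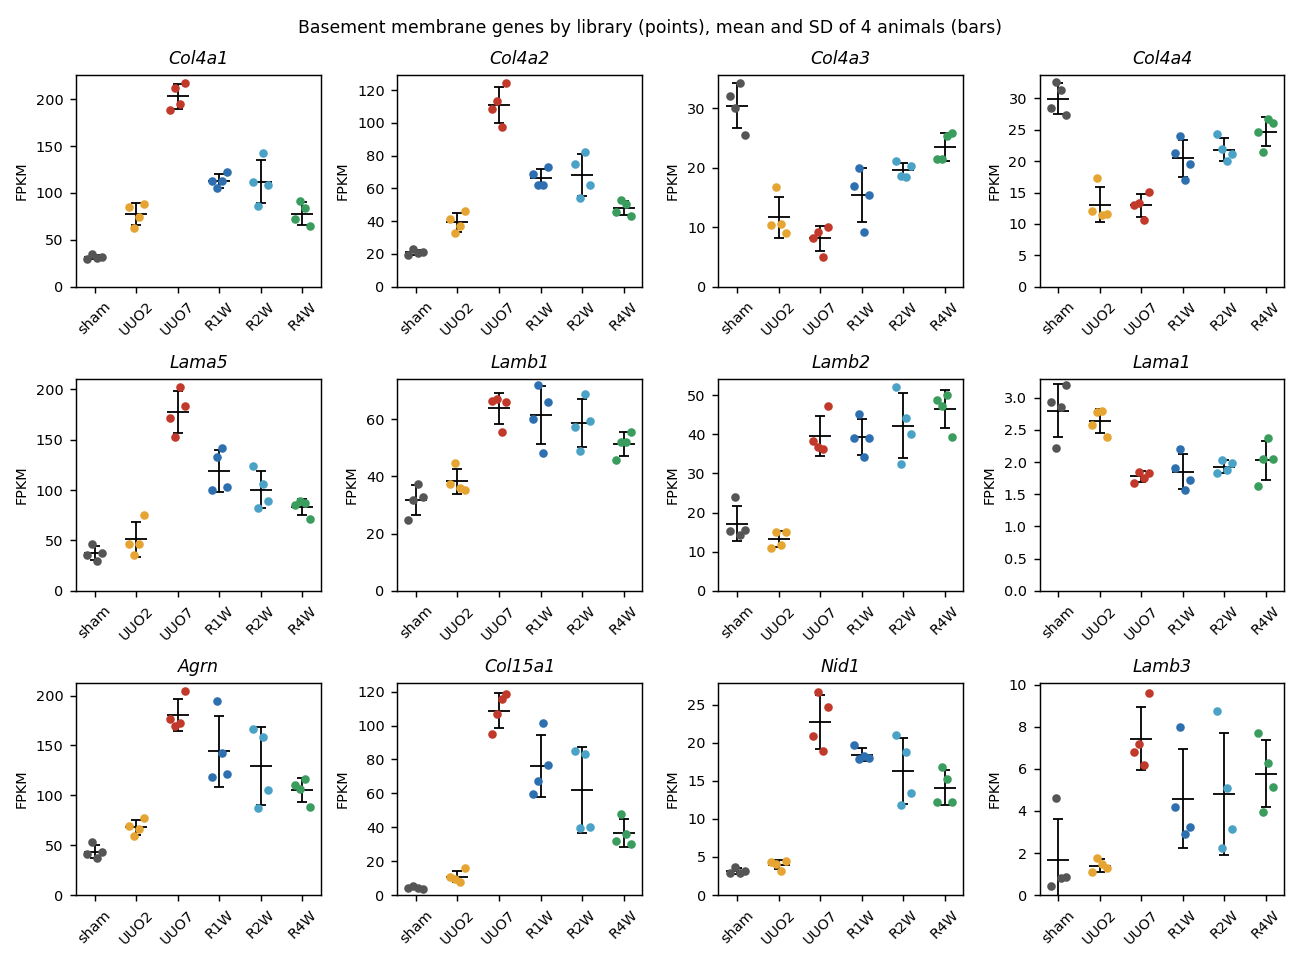
FPKM of 12 basement membrane genes in each library (points, 4 animals a group), with the group mean and SD as bars, by group. Col4a1, Col4a2, Lama5, Agrn, Col15a1 and Nid1 peak in UUO7, Col4a3 and Col4a4 are lowest in obstruction, and Lamb2 is highest in R4W.

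Laminin chains, the second class, rose in all 3 positions of the trimer. In UUO7 against sham 9 of 11 rose, 1 fell and 1 was not called, beside 60.1% of all genes called higher and 17.8% lower. On rescaled values 8 rose and 2 fell, Lama3 being added, beside 36.5% each way. In R4W against sham 9 were higher and 1 lower, in a comparison where 54.8% of all genes were called higher and 11.6% lower. From UUO7 to R4W, 4 chains fell, 0 rose and 7 were not called, beside 30.8% of all genes called lower and 17.6% called higher.

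Among alpha chains Lama5, the main alpha chain of tubule and glomerular basement membranes, had the highest mean of the class. Lama5 (chromosome 2, 180176373 to 180225859) was at 35.8, 46.6, 29.9 and 37.4 FPKM in sham, 46.4, 35.7, 46.7 and 75.7 in UUO2, 171, 153, 202 and 183 in UUO7, 99.99, 133, 141 and 103 in R1W, 124, 82.3, 106 and 89.2 in R2W, with R4W at 85.5, 89.3, 87.6 and 71.4. All UUO7 libraries were above all others. Its log2 fold change at 7 days was 2.22 ± 0.18, with a limma adjusted p of 1.06e-09, and at R4W 1.15 ± 0.18. The fall from UUO7 to R1W was -0.58 with a limma adjusted p of 0.0374, and it missed the threshold when any 1 of UUO7 replicates 1, 3 or 4 or R1W replicates 1 or 4 was left out, at -0.50 to -0.59, and with a replicate block (-0.58, limma adjusted p 0.0573).

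Lama4, the alpha chain of vessel walls, was at 1.61, 3.12, 1.36 and 1.66 FPKM in sham, 1.02, 1.78, 1.1 and 2.89 in UUO2, 9.65, 10.6, 11.8 and 12.4 in UUO7, 7.68, 8.14, 10.2 and 7.4 in R1W, 12.3, 5.93, 8.68 and 4.73 in R2W, with R4W at 6.87, 5.19, 5.75 and 5.75. UUO7 did not overlap sham, and the log2 fold change was 2.07 ± 0.23. Lama2, the alpha chain of muscle and mesenchymal cells, was at 1.55, 2.06, 1.61 and 1.94 FPKM in sham, 1.14, 1.33, 0.65 and 1.02 in UUO2, 7.7, 9.17, 8.68 and 9.96 in UUO7, 10.5, 8.43, 9.71 and 11.2 in R1W, 8.53, 6.55, 8.77 and 6.24 in R2W, with R4W at 4.87, 6.48, 6.94 and 5.23. It moved down at 2 days, by 0.46 (-0.096 and not called with a pseudocount of 10), and up at 7 days, by 1.82, and UUO2 lay below sham without overlap. From R1W to R4W it fell by 0.68 on the log2 scale (limma adjusted p 0.00413). Endothelium and mesenchyme markers differed between the same groups. Their summed levels were 88 to 153 and 25.9 to 62.6 FPKM in sham and 315 to 323 and 282 to 328 in UUO7. Of 6 endothelium markers 5 rose at 7 days and 3 fell at 2 days, or 5 and 5 on rescaled values. Of 6 mesenchyme markers 6 rose at 7 days. At 2 days, when Lama2 was down, 3 rose and 0 fell, or 2 and 1 on rescaled values. They summed to 64.1 to 133 FPKM in UUO2, and 0 markers of either list were at 0. Their part was not tested.

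Lama1, the alpha chain of the embryonic kidney that persists at low level in tubules, fell. It was at 2.93, 2.22, 2.86 and 3.19 FPKM in sham, 2.58, 2.77, 2.79 and 2.39 in UUO2, 1.67, 1.85, 1.76 and 1.83 in UUO7, 1.91, 2.21, 1.57 and 1.72 in R1W, 1.83, 2.03, 1.87 and 1.99 in R2W, with R4W at 1.63, 2.04, 2.38 and 2.05. UUO7 lay below sham without overlap, with a log2 fold change of -0.45 ± 0.09 (limma adjusted p 0.000118), and R4W was lower by 0.33 (0.00311) with overlapping libraries. Lama3, the alpha chain of the epithelial laminin that anchors hemidesmosomes, was at 4.98, 3.3, 4.41 and 4.02 FPKM in sham, 4.15, 5.38, 4.15 and 3.33 in UUO2, 4.02, 4.92, 3.18 and 4.94 in UUO7, 4.03, 5.1, 2.24 and 2.57 in R1W, 5.21, 3.04, 4.17 and 4.16 in R2W, with R4W at 3.84, 4.28, 4.13 and 3.99. The groups overlapped throughout. Its log2 fold change at 7 days was 0.02 ± 0.17 (limma adjusted p 0.924), and on rescaled values -0.38 (0.0479).

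The beta chain of that laminin, Lamb3, did rise. Lamb3 was at 0.41, 4.61, 0.79 and 0.88 FPKM in sham, 1.08, 1.77, 1.47 and 1.27 in UUO2, 6.8, 7.17, 6.21 and 9.6 in UUO7, 4.17, 8.02, 2.92 and 3.24 in R1W, 8.78, 2.26, 5.08 and 3.15 in R2W, with R4W at 7.69, 3.96, 6.27 and 5.14. The sham value of 4.61 is replicate 2. At 7 days the log2 fold change was 1.88 ± 0.36, and 2.31 without that library. Summed urothelium markers were 19.3 to 36.6 FPKM in UUO7 and 46.2 to 151 in R4W, and all 6 were called higher in R4W than in sham. Their part in the levels of Lamb3 and Col4a6 was not tested.

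Beta and gamma chains of the general basement membrane also rose. Lamb1, the widespread beta chain, was at 24.9, 31.9, 37.5 and 32.97 FPKM in sham, 37.2, 44.6, 36.1 and 35.1 in UUO2, 66.2, 67.2, 55.6 and 66.1 in UUO7, 59.96, 71.8, 48.03 and 65.8 in R1W, 57.4, 48.7, 68.9 and 59.5 in R2W, with R4W at 45.8, 51.9, 51.9 and 55.6. UUO7 and sham did not overlap, and the log2 fold change was 0.99 ± 0.13. Lamb2, the beta chain of the mature glomerular filter and of vessels, was at 15.2, 23.9, 14.2 and 15.4 FPKM in sham, 11.01, 15.1, 11.7 and 14.9 in UUO2, 38.1, 36.6, 36.2 and 47.1 in UUO7, 38.9, 45.1, 34.05 and 39.1 in R1W, 52.1, 32.5, 44.2 and 40.05 in R2W, with R4W at 48.8, 47.1, 50.05 and 39.3. It showed no fall after reversal: R4W was 1.40 ± 0.15 above sham and 0.23 above UUO7, the second with a limma adjusted p of 0.232, or 0.33 (0.0378) on rescaled values. Lamc1, the common gamma chain, was at 5.76, 8.57, 6.06 and 6.43 FPKM in sham, 9.51, 8.57, 9.66 and 11.01 in UUO2, 27.2, 31.2, 33.2 and 32.5 in UUO7, 22.5, 29.5, 35.8 and 25.8 in R1W, 26.2, 18.4, 25.2 and 17.1 in R2W, with R4W at 20.9, 19.5, 20.03 and 16.3. It rose by 2.06 ± 0.14 in UUO7 and fell by 0.67 from UUO7 to R4W. The authors' deposited table gives Lamc1 0.79 and -0.014 for these steps, the second with an adjusted p of 0.922. Lamc3, a gamma chain of low level, was 0.43 above sham in UUO7 and 0.77 below it in UUO2, and at 7 days the rise was 0.10 and not called on rescaled values.

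Of the 6 linkers, proteoglycans and collagens that complete the sheet, all 6 rose in UUO7 under both scalings, and the libraries of UUO7 and sham overlapped for none of the 6. Over all genes 60.1% rose, 36.5% on rescaled values, and 73.7% did not overlap. From UUO7 to R4W 5 of the 6 fell, beside 30.8% of all genes. In that comparison the authors' deposited table does not call Hspg2 (0.066, adjusted p 0.693) or Nid2 (-0.161, 0.352). In R4W all 6 were above sham on the values as deposited, and Nid2 was not on rescaled values.

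Col15a1 encodes a collagen that ties basement membranes to the interstitium. It was at 3.91, 5.16, 3.86 and 3.59 FPKM in sham, 10.6, 9.41, 7.82 and 15.8 in UUO2, 95.1, 107, 115 and 118 in UUO7, 59.4, 67.3, 101 and 76.8 in R1W, 85.1, 39.8, 82.97 and 40.1 in R2W, with R4W at 31.8, 48.05, 35.98 and 29.9. The mean went from 4.13 ± 0.701 to 109 ± 10.5 FPKM (SD, n = 4), and of the steps tested UUO7 to R1W alone was not called. The log2 fold change was 1.18 ± 0.24 at 2 days, 4.42 ± 0.24 at 7 days and 2.85 ± 0.24 in R4W, with limma adjusted p values of 0.000352, 9.9e-12 and 6.55e-09. Comparisons of R2W were not tested here.

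Nid1, encoding the nidogen that bridges laminin and collagen IV, was at 2.86, 3.74, 2.91 and 3.13 FPKM in sham, 4.3, 4.06, 3.21 and 4.46 in UUO2, 20.8, 26.7, 18.9 and 24.8 in UUO7, 19.7, 17.9, 18.2 and 18.1 in R1W, 21.01, 11.9, 18.8 and 13.4 in R2W, with R4W at 12.2, 16.8, 15.2 and 12.2. UUO2 overlapped sham (0.27, limma adjusted p 0.142), and UUO7 was higher by 2.51 ± 0.15. Agrn, encoding the heparan sulfate proteoglycan agrin, was at 40.7, 52.7, 37.2 and 42.7 FPKM in sham, 69.6, 59.5, 66 and 77.5 in UUO2, 177, 169.7, 173 and 204 in UUO7, 118, 195, 142 and 121 in R1W, 166, 87.5, 159 and 106 in R2W, with R4W at 111, 106, 117 and 87.8. It rose at 2 days by 0.65 and at 7 days by 2.04 ± 0.18. Hspg2 (perlecan) rose from 17.6 ± 8.31 to 93.6 ± 15.2 FPKM and Col18a1, the precursor of endostatin, from 35.8 ± 9.46 to 163 ± 16.4. Nid2 had the smallest rise of the class, from 7.23 ± 0.561 to 14.5 ± 1.37 FPKM.

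Of the 14 integrin subunits that bind matrix or latent TGF-beta, 13 rose and 1 fell in UUO7 against sham, beside 60.1% and 17.8% of all genes, and on rescaled values 11 rose and 1 fell, beside 36.5% each way, with Itgb6 and Itga10 no longer called. In R4W against sham 12 were higher and 2 lower, beside 54.8% and 11.6%. On rescaled values these were 10 and 2, beside 28.9% and 31.1%. From UUO7 to R4W 5 fell, 0 rose and 9 were not called, and the 5 falls of 14 are near the 30.8% of all genes called lower. On rescaled values 5 fell and 1 rose, Itgb4.

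Itgb1, the beta subunit shared by most receptors for laminin and collagen, had the highest mean of all integrins. It was at 52.5, 62.8, 51.8 and 55.5 FPKM in sham, 94.8, 78.97, 102 and 96.5 in UUO2, 141, 159.8, 150.3 and 148 in UUO7, 110.4, 140.2, 132 and 114 in R1W, 124, 88.5, 121 and 95.3 in R2W, with R4W at 96.8, 105, 105 and 92.1. The groups sham, UUO2 and UUO7 did not overlap, at log2 differences of 0.73 ± 0.11 and 1.42 ± 0.11 from sham. Itga6, the laminin-binding alpha subunit of hemidesmosomes and tubule cells, was at 23.7, 25.3, 26.5 and 24.5 FPKM in sham, 44.4, 45.7, 42.5 and 42.6 in UUO2, 49.5, 60.1, 57.2 and 60.5 in UUO7, 43.1, 57.2, 56.5 and 47.03 in R1W, 47.01, 42.5, 57.3 and 51.3 in R2W, with R4W at 31.7, 39.6, 39.9 and 34.5. It rose by 0.79 at 2 days and 1.15 at 7 days. In R4W it was higher than sham by 0.52 on the values as deposited, and by 0.16 and not called on rescaled values. Itga1, a collagen-binding alpha subunit, was at 6.69, 6.78, 6.51 and 6.31 FPKM in sham, 10.8, 12.01, 10.4 and 10.9 in UUO2, 13.2, 14.6, 12.6 and 14.8 in UUO7, 13.2, 14.9, 11.4 and 12.1 in R1W, 11.9, 9.49, 13.03 and 12.1 in R2W, with R4W at 9.69, 12.4, 10.3 and 9.2. It rose by 0.67 at 2 days and 0.96 at 7 days.

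The falls of Itgb1 and Itga1 from R1W to R4W, -0.31 and -0.29, had limma adjusted p values of 0.0478 and 0.0387. They missed the threshold without R1W replicate 3, at 0.156 and 0.0525, and in several other fits that left out 1 library. A fit of those 2 groups alone also ended both calls (limma adjusted p 0.0787 and 0.128). That of Itgb1 was also lost with a replicate block (0.0586), a pseudocount of 0.1 (0.0511) and R4W replicate 2 placed in R2W (0.0502), and that of Itga1 on rescaled values (0.0561). Itga6 fell over the same interval by 0.47 (limma adjusted p 0.00598, and 0.0626 in the fit of those groups alone).

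Itga3, which binds the laminin of Lama5 and Lama3 in podocytes and tubules, rose from 11.1 ± 5.71 to 34.7 ± 2.63 FPKM in UUO7, and Itgb4, the beta subunit of hemidesmosomes, from 1.58 ± 0.948 to 5.30 ± 1.27. Itgb4 was at 8.05 ± 1.42 in R4W. Itga5, the fibronectin receptor subunit, was at 1.36, 2.14, 1.17 and 1.24 FPKM in sham, 2.83, 1.94, 2.67 and 3.95 in UUO2, 7.76, 8.48, 7.09 and 8.13 in UUO7, 5.69, 6.62, 4.51 and 5.52 in R1W, 8.03, 4.51, 8.06 and 5.95 in R2W, with R4W at 6, 7.5, 6.75 and 5.05. UUO7 and sham did not overlap, and the log2 fold change was 1.85 ± 0.17. Itga9, Itga7 and Itga10 were 1.71, 1.00 and 0.44 above sham at 7 days.

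Itga8, a subunit of mesenchymal cells that binds nephronectin, was at 1.38, 2.22, 1.32 and 1.39 FPKM in sham, 0.57, 0.88, 0.33 and 0.75 in UUO2, 3.13, 3.86, 2.42 and 3.87 in UUO7, 3.35, 3.22, 2.96 and 4.05 in R1W, 3.35, 2.08, 2.46 and 2.57 in R2W, with R4W at 2.41, 2.84, 3.16 and 3.48. It was below every sham library in UUO2 and above every sham library in UUO7. The log2 fold changes were -0.66 ± 0.14 and 0.74 ± 0.14, with limma adjusted p values of 0.000687 and 7.19e-05, and both calls held on rescaled values.

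The subunits that activate TGF-beta split. Itgav, the alpha subunit they share, was at 33.8, 38.5, 38.2 and 34.8 FPKM in sham, 57.3, 45.4, 58.5 and 66.8 in UUO2, 130.3, 128, 156 and 122 in UUO7, 77.3, 83.2, 122 and 67.7 in R1W, 75.8, 60.6, 85.01 and 60.3 in R2W, with R4W at 51.9, 68.98, 57.9 and 54.8. UUO7 was 1.85 ± 0.15 above sham and lost 0.64 by R1W and 1.19 by R4W. In R4W it was 0.66 above sham (limma adjusted p 0.000745), or 0.30 (0.0781) on rescaled values. Itgb5, another partner of Itgav, rose from 40 ± 4.55 to 93.9 ± 8.66 FPKM in UUO7 and was 78 ± 7.75 in R4W.

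Itgb6 (chromosome 2, 60598292 to 60722643), the epithelial partner of Itgav, was at 24.4, 20.98, 22.2 and 22.2 FPKM in sham, 45.1, 31.6, 42.02 and 40.1 in UUO2, 40.9, 33.8, 35.2 and 40.4 in UUO7, 25.6, 31.9, 27.97 and 20.4 in R1W, 19.6, 21.3, 25.04 and 24.8 in R2W, with R4W at 15.6, 15.1, 15.3 and 18.03. Both obstructed groups lay above sham, and R4W lay below every library of the other groups. It was 0.79 ± 0.12 above sham at 2 days (limma adjusted p 1.7e-05) and 0.72 ± 0.12 at 7 days (1.34e-05). The rise at 7 days was 0.24 (0.0677) on rescaled values. From UUO7 it fell by 0.50 to R1W and by 1.18 to R4W, and R4W stood 0.46 below sham (0.00191), or 0.83 below on rescaled values.

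Itgb8, the remaining activating beta subunit, was at 12.8, 10.5, 14.7 and 11.7 FPKM in sham, 12.6, 16, 13.3 and 11.4 in UUO2, 8.09, 9.31, 7.64 and 8.27 in UUO7, 9.42, 10.1, 9.1 and 9.53 in R1W, 8.53, 9.79, 7.88 and 10.2 in R2W, with R4W at 9.71, 8.98, 7.97 and 8.46. It was lower in UUO7 by 0.52 ± 0.10 (limma adjusted p 8.22e-05) and in R4W by 0.45 ± 0.10, and UUO2 overlapped sham. Proximal tubule markers summed to 3588 to 4128 FPKM in sham, 1486 to 2585 in UUO2, 871 to 1063 in UUO7 and 1931 to 2647 in R4W, with 0 of 6 at 0. All 6 were called lower in UUO2 and in UUO7. In UUO2 Itgb8 overlapped sham, and Itgb6 lay above sham in both groups on the values as deposited. The part of these markers in the levels of Itgb6 and Itgb8 was not tested.

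**Figure D3:**
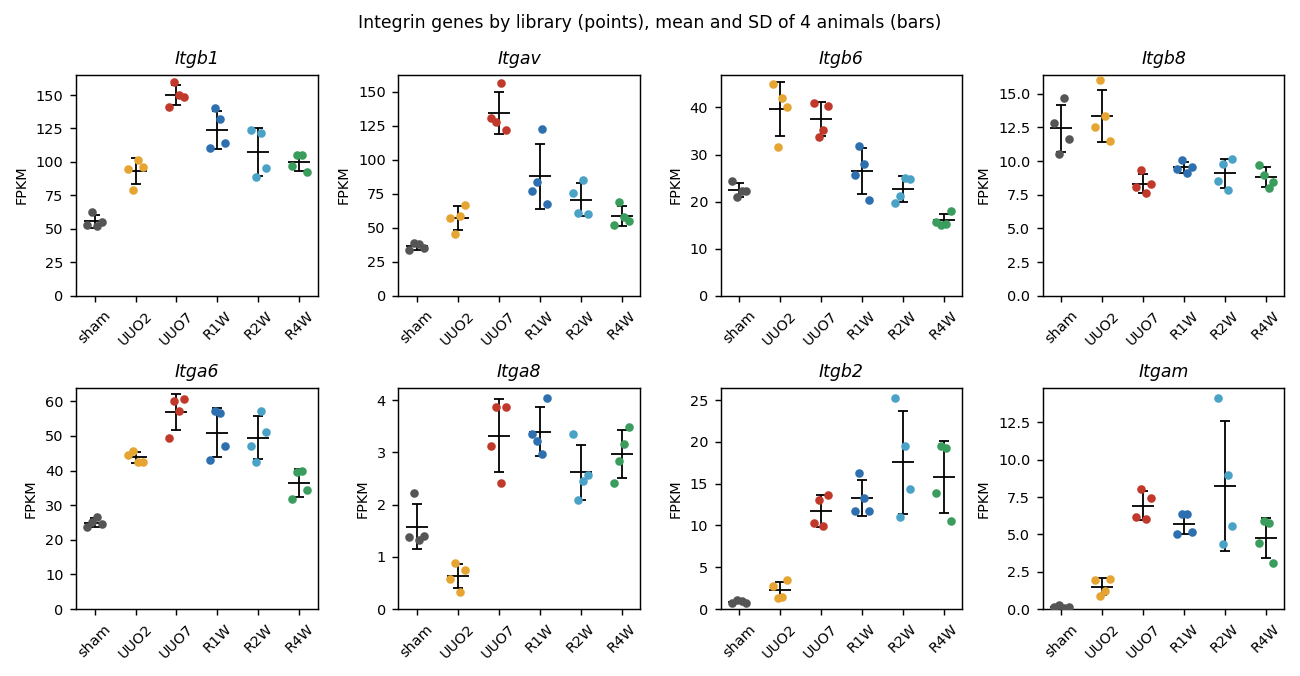
FPKM of 8 integrin genes in each library (points, 4 animals a group), with the group mean and SD as bars, by group. Itgb1, Itgav and Itga6 peak in UUO7 and fall to R4W, Itgb6 ends below sham, Itga8 dips in UUO2, and Itgb2 and Itgam stay high to R4W.

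The leukocyte integrins were still above sham 4 weeks after reversal. All 6 rose in UUO7 against sham under both scalings, but each had a sham mean under 1 FPKM and a row through the groups where it was high. This count, and their standing above sham in R4W, were therefore partly fixed by the row minimum. From UUO7 to R4W 0 fell and 0 rose on the values as deposited, beside 48.4% of all genes called. In limma on rescaled values Itgal, Itga4 and Itgb7 were higher in R4W than in UUO7, by 0.61, 0.25 and 0.43. Itgam was lower by 0.48 in a limma fit of those 2 groups alone (adjusted p 0.046). The authors' deposited table has Itgal, Itga4, Itgb2 and Itgb7 higher in R4W than in UUO7 and Itgam lower, each at an adjusted p under 0.05. Itgb2, the beta subunit shared by the integrins of neutrophils, macrophages and lymphocytes, was at 0.74, 1.11, 0.98 and 0.7 FPKM in sham, 2.76, 1.31, 1.46 and 3.42 in UUO2, 10.3, 13.1, 9.94 and 13.6 in UUO7, 11.8, 16.2, 13.3 and 11.8 in R1W, 25.2, 11.03, 19.5 and 14.4 in R2W, with R4W at 13.9, 19.5, 19.3 and 10.6. No library from UUO7 onward overlapped sham or UUO2. The log2 fold change was 0.73 ± 0.23 at 2 days (limma adjusted p 0.0118, 0.0584 without UUO2 replicate 4, and 0.312 with a pseudocount of 10), 2.75 ± 0.23 at 7 days and 3.12 ± 0.23 in R4W.

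Itgam (chromosome 7, 128062640 to 128118491), the myeloid alpha subunit, was at 0.12, 0.26, 0.05 and 0.14 FPKM in sham, 1.92, 0.84, 1.21 and 2 in UUO2, 6.15, 8.02, 6.03 and 7.45 in UUO7, 5.01, 6.36, 6.36 and 5.18 in R1W, 14.1, 4.38, 8.95 and 5.59 in R2W, with R4W at 4.39, 5.87, 5.73 and 3.05. Sham libraries were close to 0, so the linear ratio of 48.5 between the means of UUO7 and sham rests on values of 0.05 to 0.26 FPKM. Its log2 fold change was 1.10 ± 0.24 at 2 days (0.18 and not called with a pseudocount of 10), 2.79 ± 0.24 at 7 days and 2.31 ± 0.24 in R4W. R2W replicate 1 had the highest value, 14.1 FPKM.

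Itgax, of dendritic cells and macrophages, went from 0.585 ± 0.042 to 8.50 ± 1.61 FPKM in UUO7 and 11.3 ± 4.25 in R4W. Itgb7, of lymphocytes and mast cells, went from 0.625 ± 0.224 to 5.65 ± 0.815 and 7.59 ± 2.19. Itgal, of lymphocytes, went from 0.338 ± 0.0685 to 2.34 ± 0.717 and 3.87 ± 1.07, and Itga4 from 0.338 ± 0.034 to 1.2 ± 0.11 and 1.52 ± 0.341. Of 6 leukocyte markers listed 5 had a row, and 5 rose in UUO7 and 5 in R4W against sham. Adgre1 and Cd3e were under 1 FPKM in every sham library, so their rises were partly fixed by the row minimum. The summed level of the 5 markers was 21.3 to 23.3 FPKM in sham, 17.5 to 26.5 in UUO2, 94.5 to 118 in UUO7 and 74.6 to 129 in R4W, with 0 at 0. Their part in the level of the leukocyte integrins was not tested.

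The number of genes called differed between comparisons, among the 43 and over all genes. In UUO2 against sham 17 rose, 5 fell and 21 were not called in a comparison where 32.3% and 17% of all genes were called higher and lower. The 5 that fell were Col4a3, Col4a4, Lama2, Itga8 and Lamc3. On rescaled values 16 rose and 8 fell, beside 25.3% and 25.5%, with Nid2 no longer called and Lamb2, Col4a5 and Itgb5 called lower. In UUO7 against UUO2 36 rose and 3 fell, beside 52% and 14.7%, with a median of 1.2 against 0.28 over all genes, and on rescaled values 33 rose and 5 fell, beside 30% and 31.9%. There Nid2, Itga6 and Itga1 were no longer called, and Itgb6 and Col4a4 were called lower. The difference of the libraries named above cannot be told apart from that of the 2 times.

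The first week of reversal moved few of the 43 genes, and few of all genes. In R1W against UUO7 3 rose and 5 fell, beside 6.47% and 8.04% of all genes, and all 3 that rose were collagen IV chains (Col4a3, Col4a4 and Col4a5). The 5 that fell were Col4a1, Col4a2, Lama5, Itgav and Itgb6. On rescaled values Col18a1 joined them, for 3 rises and 6 falls beside 7.26% and 7.14% of all genes. The libraries did not overlap for 10 of the 43 (23.3%), near the 20.3% of all genes, and 14.5% of all genes were called.

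After 4 weeks of recovery the picture was partial. In R4W against UUO7 16 fell and 3 rose, beside 30.8% and 17.6% of all genes, with a median of -0.28 against -0.08 over all genes. The 3 that rose were again Col4a3, Col4a4 and Col4a5. On rescaled values 16 fell and 9 rose, beside 23.2% and 25.1% of all genes, so the share of rises among the calls moved with the scaling. The 6 added rises were Col4a6, Lamb2, Itgb4, Itgal, Itga4 and Itgb7. In R4W against R1W 10 fell and 1 rose, beside 14.1% and 5.06%. The 10 were Col4a1, Col4a2, Col15a1, Lama2, Lamc1, Itga1, Itga6, Itgav, Itgb1 and Itgb6, and the rise was Col4a3. On rescaled values 1 rose and 9 fell, Itga1 no longer called, beside 8.67% and 8.6%. The count of 11 was 6 without R1W replicate 3, 7 without R4W replicate 1 and 2, Col15a1 and Lama2, in a fit of those groups alone. Over all 14785 genes the count of 2830 was 728, 1609 and 161 in the same fits.

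Against sham, R4W still had 37 of the 43 genes higher and 3 lower, beside 54.8% and 11.6% of all genes, and a median of 1.26 against 0.30. The 37 include all 8 genes with a sham mean under 1 FPKM, so this count was partly fixed by the row minimum. On rescaled values 33 were higher and 5 lower, beside 28.9% and 31.1%, with Nid2, Lamc3, Itgav and Itga6 no longer called and Col4a3 and Col4a4 called lower. All these comparisons with sham share the same 4 sham animals, and those with UUO7 the same 4 UUO7 animals. Without sham replicate 2 the counts were 37 higher and 4 lower in UUO7 and 37 higher and 3 lower in R4W. Over all 14785 genes they were 8898 and 2553 in UUO7 and 8080 and 1678 in R4W.

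Ratios of 2 genes within a library hardly move with its scaling and were tested between sham and each of UUO7 and R4W, 8 exact permutation tests in all, of which 6 are reported here. The smallest p that 4 against 4 animals allow is 0.0286. The pairs were chosen with earlier results of these same libraries known, so the p values are no independent support. The log2 ratio of Col4a1 to Col4a3 was 0.06 ± 0.23 (SD, n = 4) in sham, 2.65 ± 0.58 in UUO2 and 4.52 ± 0.33 in UUO7. In recovery it stood at 2.85 ± 0.49 (R1W), 2.44 ± 0.31 (R2W) and 1.68 ± 0.31 (R4W). Neither obstructed nor reversed libraries overlapped sham. The differences of 4.46 in UUO7 and 1.62 in R4W each had an exact two-sided permutation p of 0.0286, adjusted to 0.0571 over the 8 tests.

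The ratio of Itgb6 to Itgb1 went from -1.27 ± 0.20 in sham to -1.97 ± 0.20 in UUO7 and -2.57 ± 0.20 in R4W. In UUO2 it was -1.21 ± 0.11, close to sham and overlapping it. The differences were -0.70 and -1.30, both with an exact permutation p of 0.0286, adjusted 0.0571. The ratio of Lamb1 to Lamb2 was 0.87 ± 0.41 in sham, 1.47 ± 0.21 in UUO2, 0.68 ± 0.17 in UUO7 and 0.15 ± 0.25 in R4W. Its difference from sham was -0.19 in UUO7 (exact permutation p 0.457) and -0.72 in R4W (0.0571, adjusted 0.0914). Sham replicate 2 had 23.95 FPKM of Lamb2. Without it the R4W difference was -0.88 with an exact permutation p of 0.0286. That brought the adjusted p to 0.0457 for this test and for all 4 tests of Col4a1/Col4a3 and Itgb6/Itgb1, which moved from 0.0571.

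**Figure D4:**
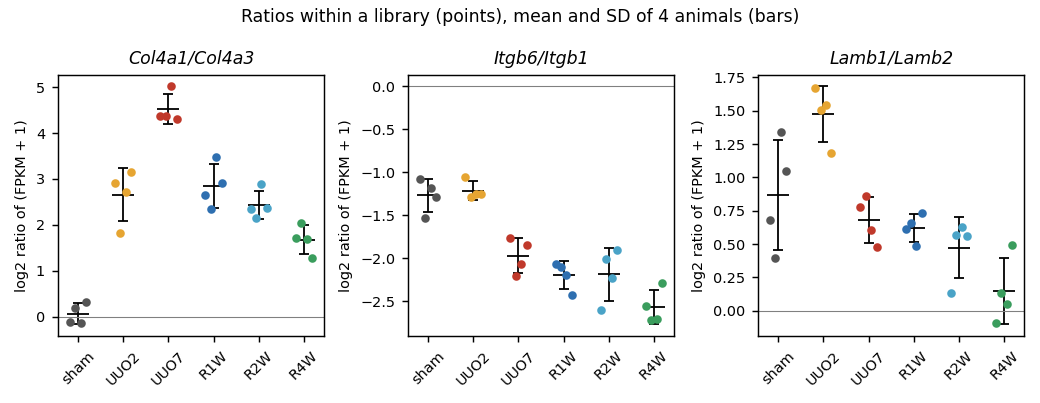
Log2 ratio of (FPKM + 1) between 2 genes within each library (points, 4 animals a group), with the group mean and SD as bars, for 3 pairs of genes by group. Col4a1/Col4a3 climbs from 0.06 in sham to 4.52 in UUO7 and is 1.68 in R4W, and Itgb6/Itgb1 drops to -2.57 in R4W.

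Other genes of the pathway were read from 4 lists in UUO7 against sham, where 60.1% of all genes were called higher and 17.8% lower, or 36.5% each way on rescaled values. The lists named 18 integrin ligands, 21 other basement membrane genes, 17 other matrix receptors and 22 genes of the adhesion machinery. Genes with no row were not measured. A gene low in sham, such as Cd44, has its row through other groups, so such rises were partly fixed by the row minimum. Of 14 measured integrin ligands 12 rose and 1 fell, with a median of 2.60, and on rescaled values 11 rose and 1 fell. Vcam1, the endothelial ligand of the Itga4 integrins, went from 1.75 ± 0.205 to 151 ± 18.6 FPKM, and Spp1 (osteopontin), a ligand of Itgav and Itga8 integrins, from 480.2 ± 160.1 to 16129 ± 1205. Spp1 was higher still in UUO2, at 21142 ± 4413 FPKM. Egfl6, a ligand of Itga8, fell from 6.40 ± 1.46 to 2.94 ± 0.475 and stood at 10.4 ± 2.55 in R4W.

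Of 19 other basement membrane genes 14 rose and 2 fell, with a median of 2.01, and on rescaled values 13 rose and 4 fell. Sparc, a collagen chaperone, went from 37.6 ± 9.33 to 488 ± 37.6 FPKM and Col6a3, of the microfibrils beside the sheet, from 2.44 ± 0.865 to 42.2 ± 10.7. Tinag, a tubule basement membrane antigen, fell from 58.5 ± 3.37 to 40.1 ± 3.47 and Ntn1, a netrin, from 16.2 ± 1.76 to 11 ± 1.07. Tinag was at 36.7 ± 3.84 FPKM in R4W.

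Of 16 other matrix receptors 13 rose and 2 fell, and 10 rose and 3 fell on rescaled values. Cd44, the hyaluronan receptor, went from 0.257 ± 0.112 to 19.1 ± 1.05 FPKM and the glypican Gpc3 from 5.50 ± 0.874 to 51.8 ± 2.89. Dst is on this list as a linker of integrins to keratin inside the cell and is not itself a receptor. It fell from 45.1 ± 1.72 to 21.5 ± 4.42, and the glypican Gpc4 from 60.9 ± 6.68 to 37.1 ± 0.697. Dst was back at 46.2 ± 1.19 FPKM in R4W.

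Of 22 genes of the adhesion machinery inside the cell 17 rose and 2 fell, with a median of 0.56, near the 0.42 of all genes. On rescaled values 7 rose and 5 fell. Flna, an actin crosslinker that binds integrin tails, went from 27.3 ± 8.19 to 276 ± 10.4 FPKM, and Fermt3, the kindlin of blood cells, from 1.25 ± 0.198 to 10.5 ± 0.888. The talin Tln2 fell from 29.6 ± 3.99 to 10.7 ± 0.622 and the tensin Tns1 from 128 ± 14.6 to 86.6 ± 6.14.

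The authors' deposited table gives its own log2 fold changes and adjusted p-values for the same comparisons. In UUO7 against sham it has 34 of 42 of these genes higher and 6 lower at an adjusted p under 0.05, beside 35.8% and 37.9% of its genes. In R4W against sham the authors' deposited table has 32 of 43 higher and 6 lower, beside 30.9% and 34.8%. In UUO2 against sham the authors' deposited table has 17 higher and 9 lower, beside 26.7% and 24.4%, and in UUO7 against UUO2 31 and 5, beside 27.9% and 33.7%. From UUO7 to R1W 4 rise and 10 fall in the authors' deposited table, beside 10.3% and 11.2%. In R4W against UUO7 the authors' deposited table has 11 higher and 16 lower, beside 26% and 27.3%, nearer to the 9 and 16 of limma on rescaled values than to its 3 and 16 on the values as deposited. Its balance differs from both limma fits in R4W against R1W, with 7 of these genes higher and 7 lower in the authors' deposited table, beside 8.75% and 9.13%. Among the genes that limma called lower there, the authors' deposited table does not call Lamc1 (0.046, adjusted p 0.769), Itgav (-0.131, 0.462), Itga6 (-0.199, 0.0917) or Itga1 (-0.27, 0.0552). For Col4a3 the authors' deposited table lists log2 fold changes of -2.41 in UUO7 and -0.75 in R4W against sham, and for Itgb6 0.26 and -0.82. In the authors' deposited table Col4a5 is lower in UUO7 than in sham, at -0.85, and so is Lama3, at -0.67. Of 42 fold changes in UUO7 against sham in the authors' deposited table, 30 lie nearer to the rescaled limma fit and 12 nearer to the fit of the values as deposited. Some lie far from both: the authors' deposited table gives Lama5 0.53, where limma gave 2.22 and 1.75 on rescaled values, and Nid2 0.004 with an adjusted p of 0.984, where limma gave 0.91 and 0.47. For Lama5 between R4W and UUO7 it gives 0.034 with an adjusted p of 0.834, where limma gave a fall of -1.08.

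**Figure D5:**
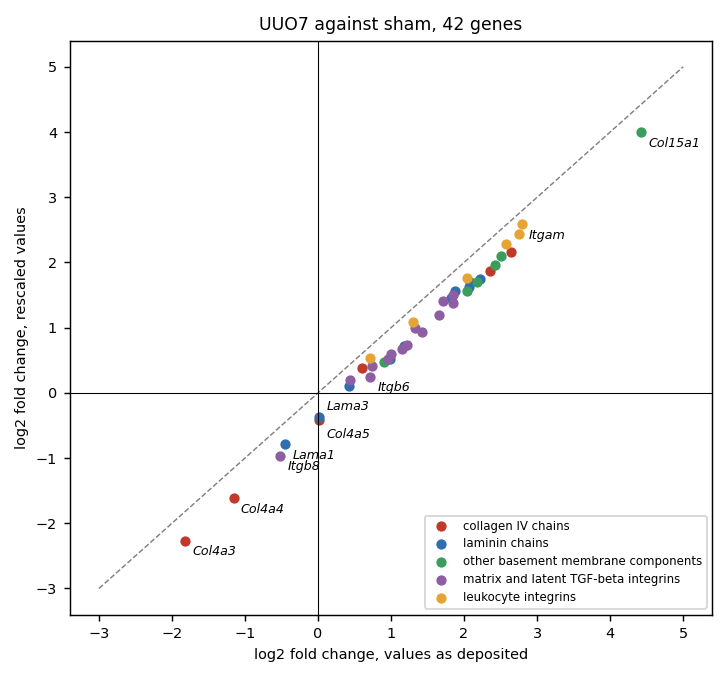
Log2 fold change in UUO7 against sham of 42 of the genes on the values as deposited (horizontal) and on rescaled values (vertical), coloured by class, with the line of equality dashed. All points lie below the dashed line, Col15a1 is highest on both scales, and Lama3 and Col4a5 sit near 0 on one axis and below 0 on the other.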

How the data were processed

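Polyadenylated RNA of mouse kidney was sequenced in 24 libraries, 6 groups of 4 animals by sample title. The authors deposited 1 table with a value per gene and library, whose unit is not given in the sources used here. FPKM (fragments per length and depth) was inferred from the deposited values: column sums differed by up to 1.157 times, and sums weighted by gene length by up to 1.077 times. The same table holds the authors' own log2 fold changes and deposited adjusted p-values. Per the submitters' processing notes FastQC, RSEM, Bowtie2, DESeq2 and the mm10 build were used; which step used which is not given in the sources used here.

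A linear model with 1 coefficient per group and no covariate was fitted to log2(FPKM + 1) of all 14785 rows (limma 3.58.1, R 4.3.3, empirical Bayes with a mean-variance trend). Calls were made at an adjusted p under 0.05 (Benjamini-Hochberg, all rows). The pseudocount of 1 shrinks the fold changes of low genes. SE is that of the limma fit and SD is over animals. The rescaled values divide each library by its median ratio to the geometric means of the genes (mean factor 0.814 in sham, 1.14 in UUO7). Ratios were compared by exact two-sided permutation. The limma step was tested on simulated data of UUO7 against sham: of 200 genes changed by 1.5 on the log2 scale among 14785, 195 were recovered, and 11 unchanged genes were called. Over all pairs of libraries the highest Pearson r was 0.9918, and 0 columns were identical.

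The genes, the lists beside them and the tests were chosen with earlier results of these data known. Values in every library were printed for 26 genes: in each class the highest mean, the 2 largest rises and the largest fall in UUO7, genes with a textbook role in the glomerular filter, hemidesmosomes or TGF-beta release, and any called between R4W and R1W. For 1 of the 43 genes, which is in the fits and counts, no values of its own are reported here. From each companion list at most 2 rises and 2 falls were named. Replicate numbers name different animals, so they do not pair samples; the correlation of same-numbered deviations is in the closing section. Depth limits precision, and it is unknown for UUO2.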

Additional observations from a re-analysis of the deposited data

Results flagged for a closer look

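In groups of 4 animals, 6 of 156 checks over the 26 genes found a library farther from its group than Dixon's 95% limit, where chance flags about 1 in 20, or 7.8. The 6 fell in 3 libraries. Sham replicate 2 held 4 of them: Lama4 at 3.12 FPKM (others 1.36 to 1.66), Lamb2 at 23.95 (14.18 to 15.44), Lamb3 at 4.61 (0.41 to 0.88) and Itga8 at 2.22 (1.32 to 1.39). That library also had 39.5 FPKM of summed urothelium markers and 199.5 FPKM of summed adipose markers, which also reached 210.2 and 1029 in R4W replicates 3 and 1; their part in these levels was not tested. UUO7 replicate 3 had 55.58 FPKM of Lamb1 (others 66.07 to 67.21), and UUO2 replicate 2 had 17.24 of Col4a4 (11.38 to 12.07).

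Of the 26 genes, 3 stood above every sham library in some groups and below every sham library in another. Itgb6 had a mean of 22.45 FPKM in sham, 39.70 in UUO2 and 16.01 in R4W. Itga8 had 1.58 in sham, 0.6325 in UUO2 and 3.32 in UUO7, and Lama2 had 1.79, 1.035 and 8.88 in the same groups. The log2 differences between the high and low groups were -1.18 for Itgb6 from UUO7 to R4W and 1.40 and 2.29 for Itga8 and Lama2 from UUO2 to UUO7, given as a description because the genes were picked for groups that cannot overlap. For Itga8 and Lama2 the low group is UUO2, whose libraries stand apart in other ways as well.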

How the results depend on the processing

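Of 71 counts of called genes under the alternatives that keep every library, 57 stayed within 1.5 times the main count. A minimum absolute log2 fold change of 1 left 6 genes in UUO2 against sham, 7 in R4W against UUO7, 24 in R4W against sham and 1 in R4W against R1W. Over all 14785 genes it left 1294, 892, 2182 and 114. With that minimum applied to rescaled values, an alternative chosen after seeing the data, 5 were left in UUO2 against sham, 25 in UUO7 against sham, 20 between UUO7 and UUO2, 6 in R4W against UUO7, 19 in R4W against sham and 0 in R4W against R1W. Over all genes these were 1340, 3569, 2102, 857, 1943 and 119. In R1W against UUO7 both gave 0 in limma, beside 196 and 187 over all genes. There 14 of the 43 genes had an unadjusted limma p under 0.05, beside 4509 over all genes, and the largest change among the 43 was 0.84. R4W against R1W had 17 genes at an unadjusted limma p under 0.05, beside 5234. An adjusted p under 0.01 left 5 genes in R4W against R1W, and a fit of those 2 groups alone left 2, beside 697 and 161 over all genes. Leaving out 1 animal gave 20 to 27 genes in UUO2 against sham, 40 to 41 in UUO7 against sham, 38 to 39 between UUO7 and UUO2, 7 to 10 in R1W against UUO7, 19 to 21 in R4W against UUO7, 40 to 41 in R4W against sham and 6 to 11 in R4W against R1W. Over all genes the ranges were 6291 to 7790, 11041 to 11451, 9253 to 9717, 1116 to 2535, 6015 to 6749, 9044 to 9758 and 728 to 3491.

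The fit with a replicate block called 40 genes in UUO7 against sham, 40 in R4W against sham, 21 in UUO2 against sham, 39 between UUO7 and UUO2, 7 in R1W against UUO7, 19 in R4W against UUO7 and 10 in R4W against R1W. Over all 14785 genes it called 11422, 9715, 7129, 9725, 1945, 6916 and 2578. The deviations of same-numbered libraries correlated at a mean r of -0.127 between UUO7 and sham and 0.148 between R1W and UUO7 (range -0.077 to 0.451), so the numbers are not taken to pair animals.

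The direction of some fold changes turned, most of them near 0 and, apart from Itga1, not called on the values as deposited. On rescaled values these were Itgb8 in UUO2 against sham (-0.031), Lamb2 in R1W against UUO7 (0.031) and Lama3 in UUO2 against sham (-0.095), UUO7 against sham (-0.38), UUO7 against UUO2 (-0.28) and R4W against UUO7 (0.044), together with Itga1 in UUO7 against UUO2 (-0.031), which was called at 0.29 on the values as deposited. A pseudocount of 10 turned Lamb3 in UUO2 against sham (-0.021). Leaving out 1 animal gave these ranges: in UUO2 against sham Lama4 -0.33 to 0.035, Lama3 -0.081 to 0.11 and Lamb3 -0.16 to 0.50; in UUO7 against sham Lama3 -0.066 to 0.13; in UUO7 against UUO2 Lama3 -0.086 to 0.11 and Col4a4 -0.072 to 0.13; in R1W against UUO7 Lama1 -0.025 to 0.082, Lamb1 -0.14 to 0.046, Lamb2 -0.074 to 0.078 and Itga8 -0.074 to 0.096; in R4W against UUO7 Lama3 -0.15 to 0.0195; in R4W against sham Lama3 -0.11 to 0.049. The cause was not tested.

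The ratio differences ranged, with 1 animal left out, from 4.30 to 4.55 and 1.5 to 1.75 for Col4a1/Col4a3 in UUO7 and R4W against sham, -0.79 to -0.62 and -1.39 to -1.23 for Itgb6/Itgb1, and -0.34 to -0.03 and -0.88 to -0.56 for Lamb1/Lamb2. With 20 depth estimates between 25100000 and 35320000 fragments, genes near 1 FPKM such as Itga4 and Col4a6 are the least precise.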
